A study of Mus musculus with 6 samples.

Results

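The small heat shock proteins of the mouse aorta were taken as 7 genes, *Hspb1*, *Hspb2*, *Hspb3*, *Hspb6*, *Hspb7*, *Hspb8* and *Cryab*, picked by symbol from a read count table of 55341 genes. They were proposed as a family after the difference of *Hspb1* between the genotypes had been seen, so for these 7 genes that difference is described here and not tested. RNA of the aortic arch and thoracic aorta was sequenced from 3 miRNA-26b-/- mice (libraries M2626 to M2628) and 3 miRNA-26b+/+ mice (M2629 to M2631), all 8 weeks old, on chow diet and labelled C57BL/6NCrl. The miRNA-26b-/- line carries a deletion of the miRNA-26b hairpin in intron 4 of *Ctdsp1*, made in R1/E embryonic stem cells, which come from a strain other than C57BL/6, with loxP sites around the hairpin, which were recombined by tamoxifen-induced CreERT2 before the Cre gene was bred out. Whether the miRNA-26b+/+ mice were littermates is not given in the sources used here. The deposited values are the numbers of reads over the exons of each gene, 25706728 to 33345037 per library. Levels are given as CPM, the counts of a gene over all counts of that library, scaled to counts per 1000000. Nothing but the labels and the study's methods says that the libraries are separate mice. The standard deviations (SD) given here therefore measure the spread between these libraries. The standard errors of log2 fold changes come from a fit across all genes and are not the spread of a single gene.

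Small heat shock proteins are chaperones that work without ATP. They share the alpha-crystallin domain, assemble into oligomers and hold unfolding proteins in a soluble state until chaperones of the HSP70 family refold them or hand them on for degradation. In vessels they are known from smooth muscle, where they bind actin and intermediate filaments and are phosphorylated during contraction and relaxation. Some family genes, *Hspb1* above all, are switched on by heat shock factor HSF1 after stress, while others are expressed mainly in muscle cells at rest.

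The 5p strands of the deleted miRNA and of its relative that is made from other hairpins are shown because both read the same seed. RefSeq sequences of build GRCm38.p6 are printed 5′ to 3′, with the seed (bases 2 to 8) in capitals.
mmu-miR-26b-5p, forward strand, chr1:74394324-74394344: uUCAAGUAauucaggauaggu
mmu-miR-26a-5p, from the hairpin Mir26a-1, forward strand, chr9:119031811-119031832: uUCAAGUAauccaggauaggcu
Over the 21 positions compared, miR-26a-5p differed from miR-26b-5p at 2, U11C and U21C, counted from the 5′ end. In the longest annotated 3′ UTR of each of the 7 genes, 132 to 1253 bases long, no match to the seed of miR-26b-5p was found (TACTTGA, TACTTGAA or ACTTGAA on the sense strand). Such a match was present in 18.9% of 21153 genes with a 3′ UTR, whose median length was 1084 bases. *Hspb7* at 1253 bases was the only member over that median, and *Hspb3* (132 bases), *Cryab* (141 bases) and *Hspb2* (201 bases) were far under it. The absence of a match says only that these letters are not in these windows. The other strand of the deleted hairpin, miR-26b-3p, has a different seed, which was not searched for.

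Promoter windows, from 250 bases before to 50 bases after a RefSeq start site, were available for 5 of the 7 genes. *Hspb2* and *Cryab* had no entry. The stretches shown are those that hold GAANNTTC, an inverted repeat of the unit that heat shock factors bind. It reads the same on both strands and was found in 7.86% of 32851 promoter windows of the same length, and at 9.04% of 27025 genes. It was present in 4 of the 5 members with a window, *Hspb1*, *Hspb6*, *Hspb8* and *Hspb3*, and *Hspb7* had none. Capitals mark the match, and the position is that of its first base from the start site (base 1).
*Hspb1*, -117, forward strand, chr5:135887791-135887820: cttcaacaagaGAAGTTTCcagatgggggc
*Hspb1*, -97, forward strand, chr5:135887811-135887840: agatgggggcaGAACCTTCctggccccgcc
*Hspb6*, -120 from its second start site, forward strand, chr7:30553170-30553199: aagtaattattGAAGTTTCtaaataaggaa
*Hspb8*, 3, reverse strand, chr5:116422844-116422873: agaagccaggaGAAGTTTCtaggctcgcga
*Hspb3*, -224, reverse strand, chr13:113663882-113663911: ctccccgaatgGAATTTTCaggcagaggga
*Hspb1* was the only member with 2 matches, and 1 of them was spelled GAAGTTTC, as were those of *Hspb6* and *Hspb8*. The repeat in the other orientation, TTCNNGAA, was in 8.52% of all windows and in none of the members. TATAAA, the core of a TATA box, was in 13.6% of all windows, and among the members in *Hspb6* (second start site) and *Hspb3*. A CArG box, the site of serum response factor that marks many smooth muscle promoters, was in 1.63% of windows and in none of these. A MEF2 site was in 3.19% of windows and in that of *Hspb3*, where it overlapped the TATA box. These matches are descriptions of letters and show no binding.

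**Figure D1:**
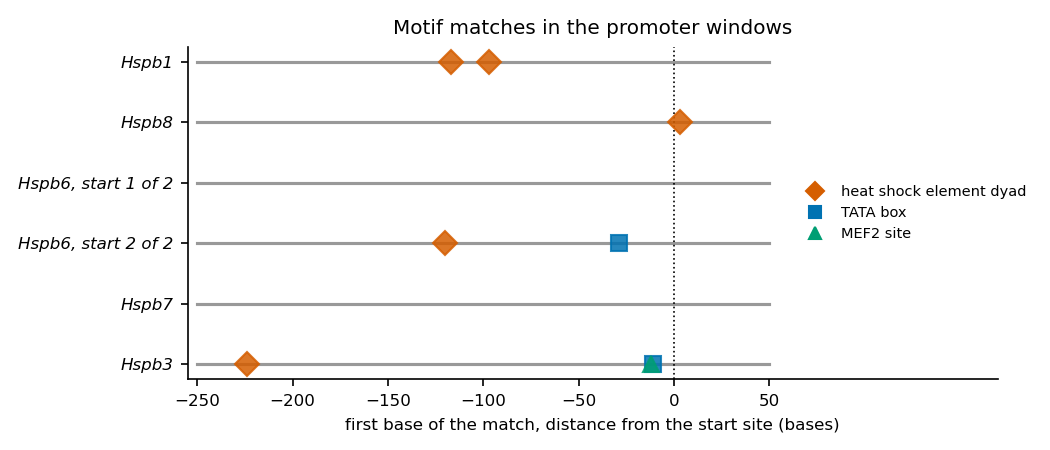
Matches of 3 motifs in the 6 promoter windows of the 5 members that have one, plotted by the distance of their first base from the start site in bases; the dotted line marks the start site. Grey lines are the windows, orange diamonds the heat shock element dyad GAANNTTC, blue squares TATAAA and the green triangle a MEF2 site; *Hspb1* has dyads at -117 and -97, and *Hspb7* has no match.

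The 7 genes lie at 6 places in the genome (GENCODE M21, GRCm38), all protein-coding. *Hspb1* (ENSMUSG00000004951) occupies chr5:135887919-135889563 on the forward strand, and *Hspb8* (ENSMUSG00000041548) lies on the same chromosome at 116408491 to 116422864, reverse strand. *Hspb6* (ENSMUSG00000036854) is at chr7:30552178-30555443, *Hspb7* (ENSMUSG00000006221) at chr4:141420779-141425311, both forward, and *Hspb3* (ENSMUSG00000051456), a gene of 1 exon, at chr13:113662896-113663676, reverse. *Cryab* (ENSMUSG00000032060, chr9:50751325-50756636, forward) and *Hspb2* (ENSMUSG00000038086, chr9:50751078-50752354, reverse) overlap in 252 bp of exon, which is 30.2% of the exon length of *Hspb2* and 17.0% of that of *Cryab*. Reads were counted without strand and for each gene they touched, so the reads of that stretch entered both genes and their counts are uncertain.

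*Hspb1* encodes HSP27 (HSP25 in the mouse), the chaperone of actin filaments that the kinase MAPKAPK2 phosphorylates. In miRNA-26b-/- aorta it had 169.8 CPM (M2626), 148 CPM (M2627) and 179 CPM (M2628), and in miRNA-26b+/+ aorta 293 CPM (M2629), 330.4 CPM (M2630) and 312 CPM (M2631). All values below follow this order of the libraries. Every miRNA-26b-/- library was below every miRNA-26b+/+ library, and the gap between the groups was wider than the range within either. The means were 165 ± 15.9 and 312 ± 18.6 CPM (SD, n = 3 each). The log2 fold change was -0.93 with a standard error (SE) of 0.14, and the level in miRNA-26b+/+ aorta was 1.89-fold that in miRNA-26b-/- aorta. These values rest on 4366 to 4982 reads per miRNA-26b-/- library and 8858 to 9626 per miRNA-26b+/+ library. In bulk tissue, fewer cells of a type and less RNA per cell cannot be told apart.

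*Hspb8*, the partner of BAG3 in the chaperone-assisted autophagy of damaged filamin, had 202, 186 and 198 CPM in miRNA-26b-/- aorta against 220.2, 215 and 223 CPM in miRNA-26b+/+ aorta. The groups did not overlap here either, but the distance was small. The means were 196 ± 8.41 and 219 ± 3.86 CPM (SD, n = 3 each), and the log2 fold change was -0.18 (SE 0.14). *Hspb8* was the steadiest gene of the family: its coefficient of variation was 4.30% among the miRNA-26b-/- and 1.76% among the miRNA-26b+/+ libraries, where counting alone gives 1.33% and 1.24%. Of 9765 genes with a mean of at least 10 CPM, 4.96% and 0.952% had a smaller one in the same groups.

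*Cryab* encodes alphaB-crystallin, a lens protein that muscle cells also use to protect desmin. Its levels were 247, 205 and 198 CPM in miRNA-26b-/- and 224, 247 and 226 CPM in miRNA-26b+/+ libraries. The highest values of both groups were nearly the same, and the groups overlapped (217 ± 26.5 against 232 ± 12.5 CPM, SD, n = 3 each; log2 fold change -0.12, SE 0.15). *Hspb2*, which binds the myotonic dystrophy kinase DMPK, had 41.4, 31.5 and 21.5 CPM against 29.0, 37.3 and 23.3 CPM. Its level nearly halved from the highest to the lowest library within the miRNA-26b-/- group, and its log2 fold change of 0.06 was smaller than its standard error of 0.28.

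*Hspb6* encodes HSP20, which kinases of the cyclic AMP and cyclic GMP pathways phosphorylate when smooth muscle relaxes. It had 211, 239.6 and 126 CPM in miRNA-26b-/- and 191, 189.9 and 225 CPM in miRNA-26b+/+ libraries. M2628 was the lowest of all 6 libraries and M2627 the highest, both of the miRNA-26b-/- group, so the coefficient of variation was 30.8% there and 9.97% among the miRNA-26b+/+ libraries. The log2 fold change was -0.08 (SE 0.20). *Hspb7*, known as a filamin-binding protein of heart muscle, had 479.6, 415 and 366 CPM against 332, 402 and 445 CPM, with overlapping groups and a log2 fold change of 0.08 (SE 0.16).

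*Hspb3*, a small heat shock protein of striated muscle, had 0 counts in all 6 libraries, which allows a level of up to 0.0900 to 0.117 CPM by library (3 counts, for counting error only, as reads are not independent molecules). The other 3 genes of the family were also at or near 0. *Cryaa*, the lens alpha-crystallin, and *Odf1*, of the sperm tail, had 0 counts throughout, and *Hspb9*, a testis gene, had 20 counts in M2630 and none elsewhere.

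**Figure D2:**
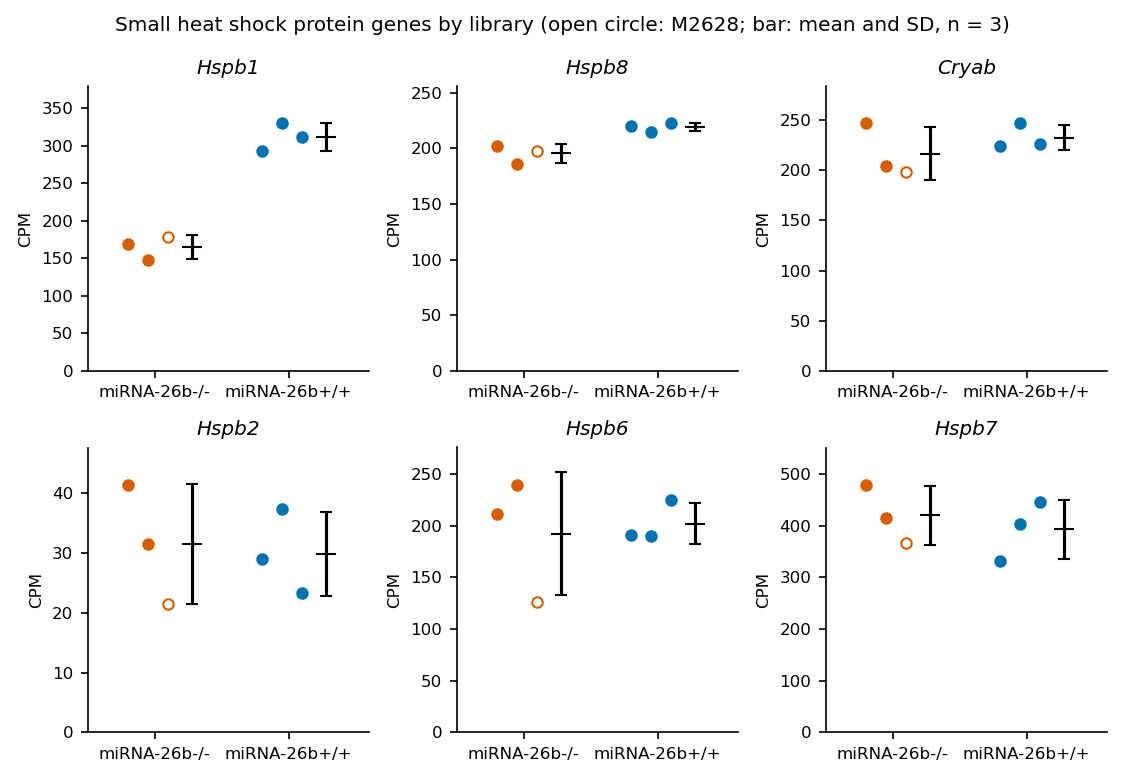
CPM (counts per 1000000 assigned reads, linear axes from 0) of the 6 small heat shock protein genes with counts, 1 point per library, with the mean and SD of 3 libraries beside each group. The groups are apart for *Hspb1* (165 ± 15.9 against 312 ± 18.6 CPM) and, narrowly, for *Hspb8*, and overlap for the other 4; M2628, the open circle, is the lowest for *Hspb6*, *Hspb2* and *Cryab*.

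Of the 7 genes, 6 passed the filter on low counts, and *Hspb3* did not. Across all 16017 genes tested with edgeR's quasi-likelihood test, 3.07% were called lower in miRNA-26b-/- aorta at an unadjusted p under 0.05 and 3.4% higher, in all 6.47%, and 0.00624% were called after adjustment. *Hspb1* was the 1 member among the genes called lower, and none was among those called higher. After adjustment 0 members were called with edgeR, which called *Gm15564* alone among all genes, while *Hspb1* was called with DESeq2 (1 of 57 genes in all), with limma voom (1 of 3) and with edgeR without M2628 (1 of 82). With the other scalings, filters and prior count, the earlier method of edgeR and each other library left out, 0 members were called. In 11.7% of all genes the groups did not overlap, 5.52% lower in miRNA-26b-/- aorta, among them *Hspb1* and *Hspb8*, and 6.13% higher, among them 0 members. Since this contrast chose the family, nothing is read from these counts. The fitted log2 fold changes of the 6 genes had a median of -0.10, beside 0.01 over all genes tested. They fell below 0 for *Hspb1*, *Hspb8*, *Cryab* and *Hspb6* and were above 0 for *Hspb7* and *Hspb2*. When each library was left out in turn, that of *Hspb1* stayed between -0.99 and -0.86, that of *Hspb8* between -0.22 and -0.15 and that of *Cryab* between -0.23 and -0.05. For *Hspb2* it ran from -0.18 to 0.27, for *Hspb6* from -0.28 to 0.15 and for *Hspb7* from -0.04 to 0.18, so the sign of these 3 depended on single libraries.

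**Figure D3:**
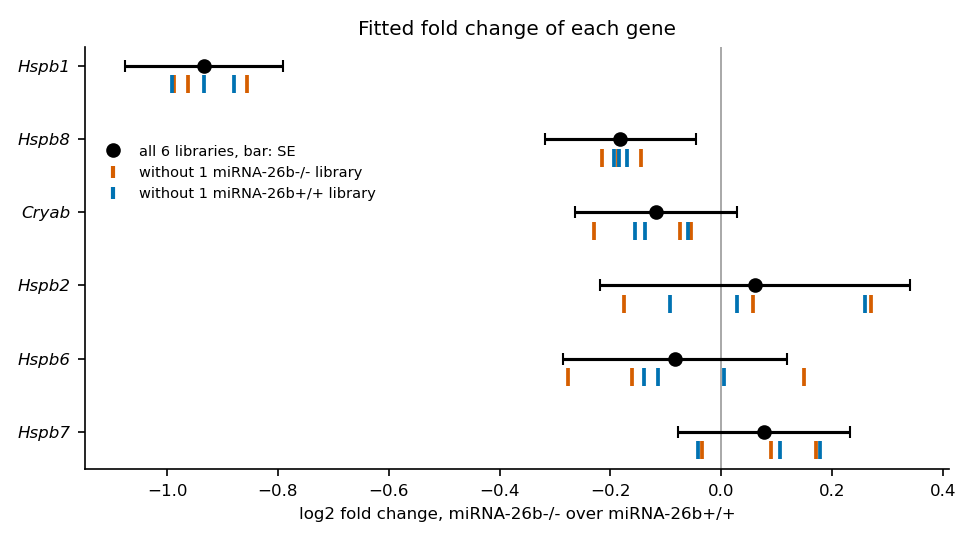
Fitted log2 fold change (miRNA-26b-/- over miRNA-26b+/+) of the 6 small heat shock protein genes tested; black points and bars are the estimate from 6 libraries and its standard error, and ticks the estimates with 1 library left out, coloured by the genotype of that library. *Hspb1* lies at -0.93, apart from the other 5, whose ticks all fall between -0.28 and 0.27.

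The groups were apart in the share of *Hspb1* in the family's reads and not in the family's sum. That share restates the difference of *Hspb1* described above. The 7 genes together took 1352, 1224 and 1089 CPM in miRNA-26b-/- against 1290, 1422 and 1455 CPM in miRNA-26b+/+ aorta, so the sums overlapped. Without *Hspb1* the sums were 1182, 1077 (M2627) and 910 CPM against 997, 1092 and 1142 CPM. *Hspb1* gave 12.6%, 12.1% and 16.4% of the family's reads in miRNA-26b-/- and 22.7%, 23.2% and 21.5% in miRNA-26b+/+ libraries, without overlap.

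Ratios within a library do not depend on its depth or scaling. The log2 ratio of *Hspb1* to *Cryab* counts was -0.54, -0.47 and -0.15 in miRNA-26b-/- against 0.39, 0.42 and 0.47 in miRNA-26b+/+ aorta. Fewer reads fell on *Hspb1* than on *Cryab* in all 3 miRNA-26b-/- libraries, and more in all 3 miRNA-26b+/+ libraries. Against *Hspb8*, the log2 ratio of *Hspb1* was -0.25, -0.33 and -0.15 in miRNA-26b-/- and 0.41, 0.62 and 0.49 in miRNA-26b+/+ libraries. The same ratio of *Hspb6* to *Cryab* ran from -0.66 to 0.23 in miRNA-26b-/- and from -0.38 to -0.01 in miRNA-26b+/+ libraries, and the groups overlapped.

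Levels of different genes were compared per length for the 6 members with counts. Over all 6 libraries *Hspb1* had 231 ± 79.3 CPM per kb of merged exon (SD, n = 6), *Cryab* 152 ± 13.8, *Hspb7* 147 ± 19.1, *Hspb8* 106 ± 7.32, *Hspb6* 85.7 ± 17.4 and *Hspb2* 36.8 ± 9.31 CPM per kb. *Hspb1* ranked at 139 of the 16017 genes by this level, *Hspb6* at 476 and *Hspb2* at 1273. These means pool both genotypes, and the lead of *Hspb1* was widest in the miRNA-26b+/+ libraries. There it had 284, 320.4 and 303 CPM per kb, against 165, 143 and 173 CPM per kb in miRNA-26b-/- aorta. Of the miRNA-26b-/- libraries, *Hspb7* was above it in M2626 (173 CPM per kb) and M2627 (149.8 CPM per kb), and *Cryab* in M2626 (167 CPM per kb). In M2628 *Hspb1* was above both, with *Hspb7* at 132 and *Cryab* at 134 CPM per kb. The order of neighbours was tested within libraries by an exact two-sided sign-flip permutation test over the 6 libraries, which cannot go below p = 0.03125, with adjustment over the 5 pairs. The pairs and their order were taken from the mean levels of these same libraries. The ratio of *Hspb1* to *Cryab* also differed between the genotypes, so the 6 libraries are not alike for that pair. *Hspb7* was above *Hspb8* in 6 of 6 libraries, by 0.46 ± 0.23 (SD) on the log2 scale of CPM per kb (exact p = 0.03125, adjusted 0.0781). *Hspb6* was above *Hspb2* in 6 of 6, by 1.23 ± 0.36 (exact p = 0.03125, adjusted 0.0781). *Hspb1* was above *Cryab* in 5 of 6 libraries, by 0.54 ± 0.46, and *Hspb8* above *Hspb6* in 5 of 6, by 0.34 ± 0.34 (exact p = 0.0625 and adjusted 0.0781 for each). *Cryab* and *Hspb7* differed by 0.05 ± 0.18 and stood in this order in 3 of 6 libraries (exact p = 0.531). No neighbouring pair passed 0.05 after adjustment. With 6 libraries and 5 pairs, a pair at the smallest p could pass only if nearly all pairs were there. The adjusted values therefore cannot decide the order of a single pair. *Cryab* was not separable from *Hspb7* with merged exon lengths, but with the length of the longest transcript it was above it in 6 of 6 libraries, by 0.46.

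The other genes of the pathway were taken from lists, also chosen with earlier results of these data known. Among the 18 other heat-inducible chaperones and co-chaperones, 10 were called lower in miRNA-26b-/- aorta, where 3.07% of all genes were, and 0 were called higher; 11 were called with limma voom and 10 with DESeq2. Their median log2 fold change was -0.51, beside 0.01 for all genes, and 16 of 18 were below 0. After adjustment over all genes 0 of the 18 were called with edgeR and with limma voom, and 5 with DESeq2, *Hspa4l*, *Stip1*, *Hsp90ab1*, *Hspa8* and *Hsph1*. Without M2628, edgeR called 3 of them, *Hspa4l*, *Hspa8* and *Stip1*. *Hspa8*, the constitutive HSP70 that takes over clients from small heat shock proteins, had 746, 586 and 903 CPM in miRNA-26b-/- and 1154, 1221 and 1121 CPM in miRNA-26b+/+ libraries, a log2 fold change of -0.66 (SE 0.15). *Hspa4l*, a nucleotide exchange factor of HSP70, had 39.9, 41.4 and 37.8 CPM against 83.7, 83.8 and 75.3 CPM, and its -1.04 (SE 0.18) was the lowest log2 fold change of the list. In both genes the groups were apart, as in *Hspb1*.

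*Hsph1* (HSP110) fell by 0.65 on the log2 scale, *Hsp90ab1* by 0.51, *Hsp90aa1* by 0.59, and *Stip1*, which links HSP70 with HSP90, by 0.75. *Hspd1* of the mitochondrial chaperonin fell by 0.65, and the co-chaperones *Bag3*, *Fkbp4* and *Ahsa1* by 0.41, 0.36 and 0.35. The stress-inducible pair *Hspa1a* and *Hspa1b*, near-identical copies whose reads cannot be assigned with certainty, had log2 fold changes of -0.71 (SE 0.42) and -0.64 (SE 0.52) and were not called. *Hspa1a* had 54.0, 46.6 and 132 CPM in miRNA-26b-/- and 219.7, 107 and 51.4 CPM in miRNA-26b+/+ libraries, so the groups overlapped and the miRNA-26b+/+ group held both the highest value and 1 of the 3 lowest. *Hspe1*, the small subunit of the mitochondrial chaperonin, had the highest value of the list, 0.19 (SE 0.31).

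The heat shock factors themselves were not called: *Hsf1* had a log2 fold change of 0.16 (SE 0.22), *Hsf2* 0.59 (SE 0.37) and *Hsf4* -1.69 (SE 1.03) at 1.83 CPM on average, and *Hsf5* had no counts. DESeq2 and limma voom called 0 of these 3 as well. Of the 8 genes of chaperone-assisted selective autophagy, where HSPB8 acts, 3 were called lower, *Hspa8* and *Bag3* from the list above and *Flnc*, the filamin of muscle (-0.41, SE 0.15), and 0 were called higher. *Stub1*, the ubiquitin ligase CHIP of this pathway, had 144, 138 and 112 CPM in miRNA-26b-/- and 108, 109 and 106 CPM in miRNA-26b+/+ libraries, without overlap (0.27). *Synpo2*, the scaffold that starts it in muscle, had levels of 1150 to 1356 CPM in the 6 libraries. Without M2627, 1 gene of this list was called.

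Among 8 kinases of the pathways that phosphorylate small heat shock proteins, 0 were called with edgeR and DESeq2 and 1 with limma voom, and their median log2 fold change was 0.10. *Prkg1*, the cyclic GMP kinase of relaxation, was the highest at 0.37 (SE 0.18), and *Mapkapk2* was at -0.08 (SE 0.15). Of 8 cytoskeletal partners, *Flnc* and *Vim*, the intermediate filament vimentin, were called lower (-0.41 and -0.29). *Flna* also did not overlap between the groups, at 10484 to 10811 CPM against 11001 to 13383 CPM (log2 fold change -0.20). *Des* (0.04), the desmin gene, *Dmpk* (-0.03) and *Actb* (0.01) overlapped. Without M2627 or without M2631, 0 of the partners were called, and without M2630, 1.

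**Figure D4:**
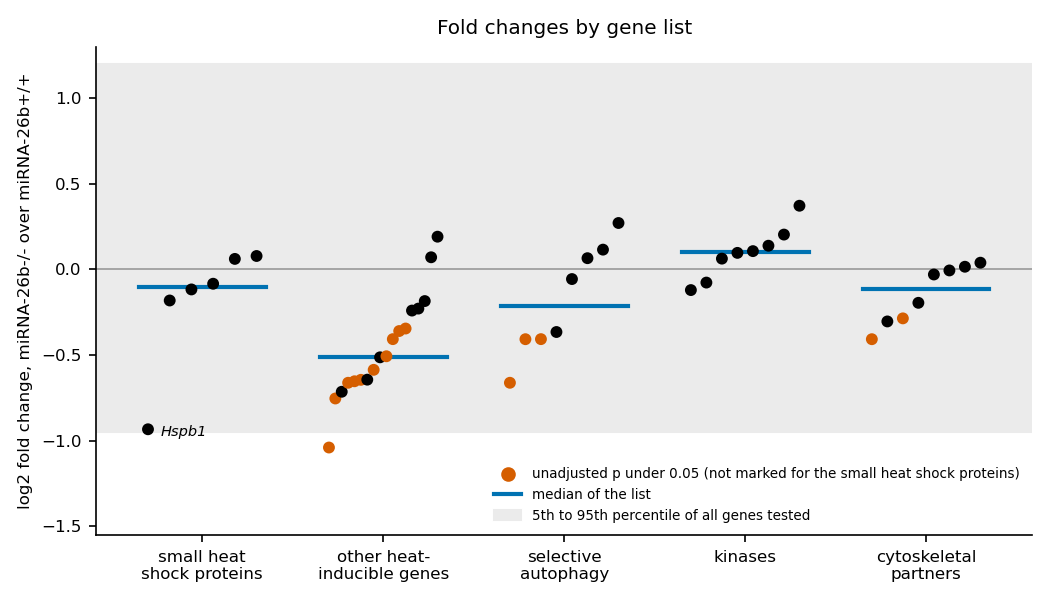
Log2 fold change (miRNA-26b-/- over miRNA-26b+/+) of each tested gene in the small heat shock protein family and 4 lists of its pathway, sorted within a list, with the list's median as a blue line; orange points have an unadjusted p under 0.05 in edgeR's quasi-likelihood test (not marked for the family), and grey spans the 5th to 95th percentile of all genes tested, -0.95 to 1.20. *Hspa8*, *Bag3* and *Flnc* stand in 2 lists each, and the median of the other heat-inducible genes, -0.51, is the lowest of the 5.

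Over the 6 libraries, the genes with a pattern most like *Hspb1* were sought among 9759 genes with a mean of at least 10 CPM, by the root mean square difference of centred log2 CPM. The nearest were *Stip1* (0.12), *Ereg* (0.14), *Gm37885* (0.15, a gene that overlaps *Capn2* on the other strand), *Hspa4l* (0.15) and *Ppid* (0.15), against a root mean square of 0.48 for *Hspb1* itself. Most of the pattern of *Hspb1* is the difference between the groups, which chose the family. The search therefore returns genes with a like difference and adds nothing independent of it. Their log2 fold changes were -0.75, -0.85, -0.85, -1.04 and -0.90 in the same order. The small heat shock proteins were left out of the candidates for every member, so this search does not say how alike they are. *Hspb8* was nearest to *Ddost* and *Hnrnpa3* (0.03 and 0.04), *Cryab* to *Stk40* and *Chid1* (0.03 and 0.04), and *Hspb7* to *Lgals1* and *Calm3* (0.05 each). *Hspb6* was nearest to *Extl2* and *Klhl22* (0.07 and 0.08) and *Hspb2* to *Acot13* and *Mrpl12* (0.08 and 0.09). These members varied less than *Hspb1*, so their smaller distances do not mean closer matches. Their own root mean squares were 0.10 for *Hspb8*, 0.13 for *Cryab*, 0.19 for *Hspb7*, 0.31 for *Hspb6* and 0.34 for *Hspb2*.

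The labels call the samples endothelial cells of the aorta, while the methods describe whole vessel. The summed level of 8 smooth muscle genes was 33458 to 43626 CPM and that of 10 endothelial genes 602 to 1969 CPM, so smooth muscle transcripts were far above endothelial ones in every library. *Mir26b* had 0 counts in 5 libraries and 20 in M2630, too few in long-RNA libraries to check the genotypes, and its host *Ctdsp1* had 184 to 200.5 CPM in miRNA-26b-/- and 151 to 176 CPM in miRNA-26b+/+ libraries (log2 fold change 0.20, SE 0.15). M2628 stood apart, with the highest summed levels of 8 fibroblast genes (15137 CPM, against 8369 to 10468 in the other 5) and 8 macrophage genes (852 against 317 to 580 CPM) and the lowest of smooth muscle genes. Its *Hspb6*, *Hspb2* and *Cryab* and the sum of the family were the lowest of all libraries. Without M2628, 1692 genes were called in place of 1036, the log2 fold change of *Hspb1* was -0.99, and those of *Hspb6*, *Hspb2* and *Cryab* were 0.15, 0.27 and -0.05. M2627, the library with the lowest *Hspb1*, stood apart as well, with the highest summed levels of sympathetic neuron markers (427 CPM, against 62.1 to 161 in the other 5) and adipocyte markers (3326 against 795 to 2120 CPM). Without M2627 the log2 fold change of *Hspb1* was -0.86.

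Beside *Hspb1*, the markers of other cells were as follows. Its level per 1000 CPM of smooth muscle genes was 4.10, 3.96 and 5.34 in miRNA-26b-/- and 8.03, 8.95 and 7.16 in miRNA-26b+/+ libraries, without overlap. Per CPM of endothelial genes it was 0.282, 0.215 and 0.0907 against 0.206, 0.177 and 0.187, with overlap. Of the 10 endothelial genes 2 were called lower, where 3.07% of all genes were, and 9 were below 0. Their median log2 fold change was -0.43, beside 0.01 for all genes. The summed level of these 10 genes was 602 CPM in M2626, 687 CPM in M2627 and 1969 CPM in M2628. It was 1420 to 1864 CPM in the miRNA-26b+/+ libraries. The summed level of the 10 Schwann cell markers did not overlap between the groups, at 428 to 606 CPM in miRNA-26b-/- and 261 to 334 CPM in miRNA-26b+/+ libraries. Of the 9 tested, 7 were called higher, where 3.4% of all genes were. Skeletal muscle markers were at 9.85 to 123 CPM and 6.85 to 16.1 CPM, with overlap. The high sums were those of M2626 (48.0 CPM) and M2627 (123 CPM), and M2628 was at 9.85 CPM. Of the 11 tested, 9 were called higher, but only 2 did not overlap between the groups. Cardiac markers were at 127 to 479 CPM and 154 to 477 CPM, with *Myl2* at 0 throughout. Of 10 sympathetic neuron markers 3 were called higher, and the median log2 fold changes of 7 adipocyte and 6 brown adipocyte markers were 0.46 and 0.25. Their summed levels overlapped between the groups, those of brown adipocyte markers at 202 to 450.4 CPM in miRNA-26b-/- and 147 to 389 CPM in miRNA-26b+/+ libraries. The part of these cells in the difference of *Hspb1* was not tested.

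The other members were set against the smooth muscle genes as well. *Hspb6* per 1000 CPM of smooth muscle genes was 5.22, 5.14 and 5.16 in the 3 miRNA-26b+/+ libraries, a range far narrower than the 3.76 to 6.42 of the miRNA-26b-/- libraries. *Hspb7* on the same scale was 11.6, 11.1 and 10.9 in miRNA-26b-/- and 9.11, 10.9 and 10.2 in miRNA-26b+/+ libraries. The miRNA-26b-/- values were all higher, without overlap but by a narrow margin (10.95 in M2628 against 10.90 in M2630). *Hspb8* overlapped between the groups once set against smooth muscle genes, at 4.89 to 5.92 and 5.10 to 6.03. *Cryab* overlapped as well, at 5.48 to 5.96 and 5.18 to 6.68.

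**Figure D5:**
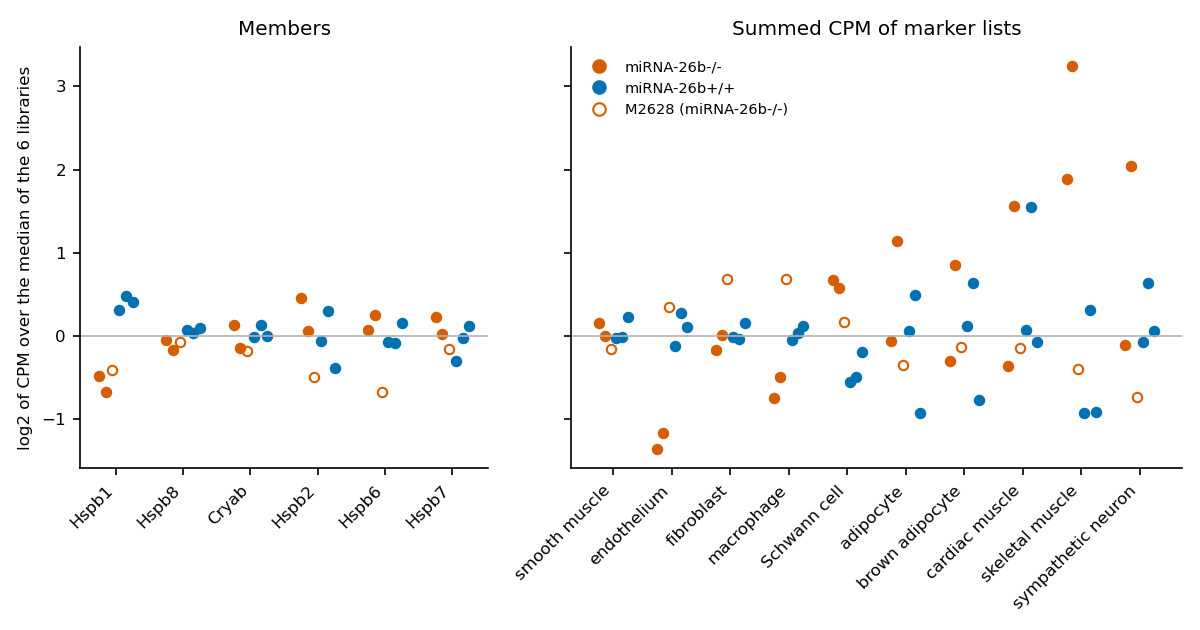
Log2 of CPM over the median of the 6 libraries for each small heat shock protein gene (left) and for the summed CPM of 10 marker lists (right), 1 point per library. *Hspb1* and, narrowly, *Hspb8* split by genotype, as do the Schwann cell markers in the other direction, while the endothelial, fibroblast and macrophage markers are highest in M2628 (open circles).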

How the data were processed

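Reads per gene were counted in 3 miRNA-26b-/- and 3 miRNA-26b+/+ aortas, 1 library each. The authors aligned them with STAR to GRCm38 (mm10) and deposited raw counts that featureCounts 1.6.4 of Subread assigned to the exons of each gene name of GENCODE M21, per the file headers (the methods name another release), without strand and counting a read for every gene it overlaps. A second deposited table with the same counts for a filtered set of genes, the authors' log2 values and their own comparison (fold change, FDR and p) was not used.

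The genotype came from the labels. CPM were computed from all assigned counts. After removal of genes with fewer than 2 reads in all, or with no 2 libraries over 1 CPM, counts were TMM-normalized and fitted by quasi-likelihood in edgeR 4.0.16 (R 4.3.3, prior count 0.125), with Benjamini-Hochberg adjustment over all genes. The standard error of a log2 fold change was its absolute value over the square root of the F statistic of that test. The dispersion behind it is moderated across genes. Called means an unadjusted p under 0.05 unless stated. Alternatives were library size and upper quartile scaling, DESeq2 1.42.0, limma voom 3.58.1, other filters, a prior count of 2, leaving out each library, the longest transcript as length and, added after seeing the data, the earlier method of edgeR. The fit and the order test were tested on simulated data. Levels per length used merged exons, and their order an exact sign-flip permutation test in SciPy 1.17.1.

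The members, lists and alternatives were chosen with earlier results of these data known. The genes named are the members, genes of the lists where a count or the extreme of a list is given, *Mir26b* and *Ctdsp1*, and the 5 genes nearest in pattern to *Hspb1* and 2 nearest to each other member. *Synpo2*, *Stub1*, *Flna*, *Des*, *Dmpk*, *Actb*, *Mapkapk2*, *Hspa1a* and *Hspa1b* were named from their lists with their values seen. Promoter and miRNA sequences are from RefSeq (GRCm38.p6), and 3′ UTRs from GENCODE M21.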

Additional observations from a re-analysis of the deposited data

How the results depend on the processing

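Depth limited the statements on *Hspb3*, *Cryaa*, *Odf1* and *Hsf5*, which had no counts. No paired analysis was possible because the labels give no replicate numbers that pair the libraries. With other filters, scalings, tests, prior counts or lengths, 163 of 170 values stayed within 1.5 times the main count, within 1 SD of the spread between libraries or, for the order of levels, in the same direction and on the same side of the threshold. Sizes could still move: with the longest transcript as length, the log2 ratio of *Cryab* to *Hspb7* went from 0.05 to 0.46 and that of *Hspb1* to *Cryab* from 0.54 to 0.28. The values outside these limits were the genes called after adjustment (1 in the main analysis), which were 57 with DESeq2, 3 with limma voom and 0 with the earlier method of edgeR; the kinases called (0), which were 1 with library size scaling, limma voom and filterByExpr; and the cytoskeletal partners called (2), which were 4 with limma voom. The cause was not tested. The split of lower and higher calls was 492 and 544 in the main analysis, 455 and 585 with library size scaling, 482 and 365 with limma voom and 416 and 424 with DESeq2.

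With 1 library left out, 139 of 162 values stayed within the same limits. Some of these changed sign within the spread: the log2 fold change of *Hspb2* was -0.18 without M2626 and -0.09 without M2631, that of *Hspb6* 0.15 without M2628 and 0.0041 without M2631, and that of *Hspb7* -0.04 without M2626 or M2629. The median of the heat shock factors was -0.01 without M2628. Called genes ranged from 686 (without M2631) to 1692 (without M2628), lower ones from 324 (without M2630) to 904 and higher ones from 349 (without M2631) to 788. After adjustment they ranged from 0 (without M2626, M2630 or M2631) to 82 (without M2628). Of the heat shock factors 0 to 1 (without M2627, M2628 or M2631) were called, of the selective autophagy genes 1 (without M2627) to 4, with a median log2 fold change of -0.25 to -0.15, of the kinases 0 to 1 (without M2628 or M2629), with a median of 0.052 to 0.19, and of the cytoskeletal partners 0 (without M2627 or M2631) to 2, with a median of -0.18 to -0.067. The other heat-inducible genes called were 7 to 11. The log2 ratio of *Cryab* to *Hspb7* per length ranged from -0.0041 (without M2629, where it reversed) to 0.086.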
